A study of Mus musculus with 40 samples.

Results

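The stretch of mouse chromosome 11 that carries Ebf1 was followed through 24 bisulfite libraries of B-lineage cells, using every 100 bp tile whose start lies between 44250000 and 44850000 on chromosome 11 (mm9). The deposited table lists 259 such tiles of 971845 in the genome, and 217 of them have a value in at least 1 library. Of these 217, 88 lie in the 180 kb upstream flank before the gene body, 123 in the 392 kb gene body (44430000 to 44822000) and 6 beyond it. Ebf1 was the gene named for the window, and the tiles were taken by position alone, with earlier results of these data known.

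The assay was reduced representation bisulfite sequencing (RRBS), in which restriction fragments rich in CpG are read for methylated cytosine. It had been applied to pro-B cells, an early committed stage, and to follicular B cells (FoB), a mature resting population, from C57/bl mice. Each stage was represented by 3 libraries of each of 4 genotypes: wild type (WT), Tet2 knockout (Tet2KO), Tet3 knockout (Tet3KO) and the double knockout of both (DKO). The knockouts are described as inducible and driven by the MB1 promoter, a design meant to delete within the B lineage. Which cells carried the deletions was not tested. The labels give ages of 6 to 8 weeks, and these differ by genotype. WT and Tet2KO libraries are labelled 6 or 8 weeks, Tet3KO libraries all 7 weeks and DKO libraries 6 or 7 weeks. Age is thus partly confounded with genotype. Tet2KO libraries are all labelled female, and the other genotypes are each 2 male and 1 female in each stage. The labels do not say that the libraries of a group come from separate mice, so every p-value is about library-to-library spread, which may be technical. The purity of the sorted cells and the deletion itself cannot be checked in methylation levels of this window. A further 16 RNA samples were not analysed here, so no expression of Ebf1 is given.

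EBF1, early B-cell factor 1, is a transcription factor that works with E2A and PAX5 to commit progenitors to the B lineage, and it is needed from the pro-B stage onward. The Mb1 gene (Cd79a), whose promoter drives the deletions in these mice, is one of its classical targets. The enzymes TET2 and TET3 convert 5-methylcytosine to oxidised forms, from which unmethylated cytosine can be regained, and their loss is known to leave regulatory elements more methylated. Promoters rich in CpG are usually unmethylated whether or not the gene is transcribed, while the bodies of transcribed genes are usually methylated and enhancers often lie between.

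RefSeq gives 2 promoter windows of 300 bases for Ebf1, both on the plus strand of chromosome 11 of build GRCm38.p6. They are shown because the tiles around the start of the gene body were among the least methylated of the window, and because CpG content decides what RRBS can read. Every CpG is in capitals. The upstream window, chr11:44617850-44618149, holds 9 CpGs, and the downstream one, chr11:44619978-44620277, holds 17, against a median of 7 over all 32851 mouse promoter windows of this length. The motif CCGG, cut by the MspI enzyme commonly used for RRBS (the labels name no enzyme), is absent from the upstream window and occurs once in the downstream one. It is found in 52.8% of all promoter windows. It reads the same on both strands. These coordinates belong to another build than the tiles, so the windows were not placed on the tiles.
Ebf1 upstream window: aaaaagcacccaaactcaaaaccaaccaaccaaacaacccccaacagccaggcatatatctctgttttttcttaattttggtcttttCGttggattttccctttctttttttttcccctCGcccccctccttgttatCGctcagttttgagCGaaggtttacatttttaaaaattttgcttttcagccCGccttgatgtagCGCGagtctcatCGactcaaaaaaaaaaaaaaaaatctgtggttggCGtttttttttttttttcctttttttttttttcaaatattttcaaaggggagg
Ebf1 downstream window: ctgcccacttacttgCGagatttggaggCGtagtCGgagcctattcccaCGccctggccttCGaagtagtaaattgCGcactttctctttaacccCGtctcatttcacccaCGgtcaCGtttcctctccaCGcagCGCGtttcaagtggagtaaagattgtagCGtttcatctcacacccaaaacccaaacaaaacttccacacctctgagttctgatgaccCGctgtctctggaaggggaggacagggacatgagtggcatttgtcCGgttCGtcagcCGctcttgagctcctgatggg

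In the same gene order of GRCm38.p6 the nearest genes before Ebf1 are the noncoding RNA genes Gm39815, 4930597A21Rik and Gm51891, followed by Rnf145, a ubiquitin ligase gene, and Ublcp1, a phosphatase gene. Tiles of the flank may belong to any of these, and none was assigned to a gene.

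The table holds levels without the reads behind them, so depth is unknown and no counting interval can be given. The number of tiles with a value stands in for depth. Of the window's tiles, 88 to 174 had a value in 23 of the libraries, with a median of 132.5 over all 24. Pro-B Tet3KO library 8 had only 4, and 24600 tiles in the whole genome against 273728 to 631415 in the others, so most pro-B Tet3KO values rest on libraries 7 and 9 (n = 2). Tests were run at 69 tiles of the window (40 in the flank, 29 in the gene body) at which each group had a value from 2 or more libraries. These tiles were also joined into 26 clusters, 10 in the flank and 16 in the gene body, wherever the gap was at most 500 bp.

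The window had a mosaic of unmethylated and methylated tracts that was largely shared by all groups. Of the 69 tested tiles, 42 averaged under 20%, 14 averaged above 80% and 13 fell in the range of 20 to 80%. These are 60.9%, 20.3% and 18.8%, against 55.5%, 32.9% and 11.6% of the 200813 tested tiles of all autosomes. The flank was the less methylated stretch, with 80% of its tested tiles under 20%, while the gene body was spread evenly at 34.5% under 20%, 31.0% between and 34.5% above 80%. The 148 tiles that had a value but were not tested leaned the other way, with 59.5% above 80%, so the tested tiles are not a sample of the whole locus.

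**Figure D1:**
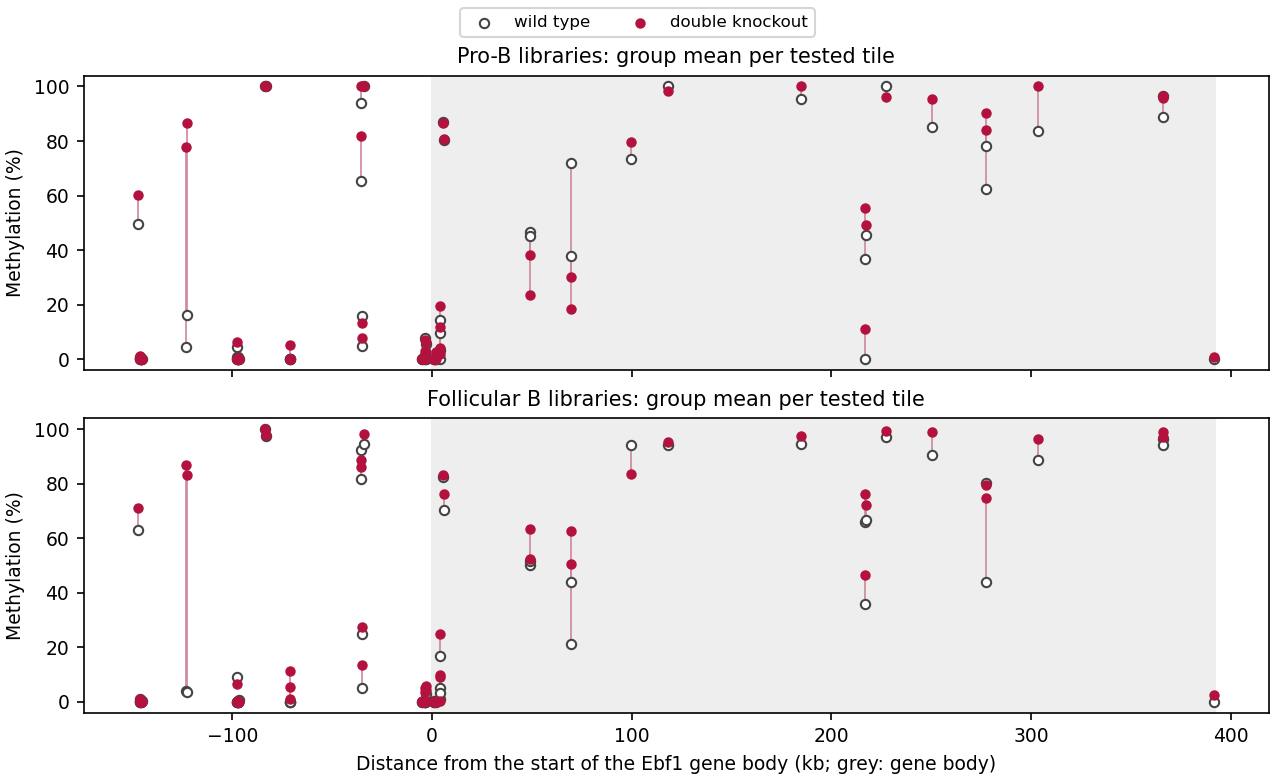
Mean methylation of the 69 tested tiles (y axis, %) against distance from the start of the Ebf1 gene body (x axis, kb, gene body in grey), for pro-B libraries above and follicular libraries below. Open circles are WT means and filled circles DKO means, joined by a line for each tile. The pair of tiles 123 kb before the gene body stands near 0 to 20% in WT and near 80% in DKO at both stages, and most other tiles keep their level.

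Around the start of the gene body methylation was close to 0 in every group. The cluster chr11:44430901-44431200 (3 tiles), the least methylated of the gene body among clusters of at least 3 tiles, was listed at 0 in 19 of the 22 libraries with a value and reached 0.549% in pro-B Tet3KO library 9. Its neighbours at chr11:44424701-44424900 and chr11:44431801-44432000 averaged 0.260% and 0.230% over all libraries, and chr11:44426201-44427000 (6 tiles) averaged 2.00%. Methylation then climbed within a few kb of the gene body. It averaged 8.54% at chr11:44433701-44434100 and 79.9% at chr11:44435601-44435800. At that last cluster group means ran from 72.0% ± 10.4 in follicular Tet3KO (SD, n = 3) to 88.5% ± 3.59 in pro-B Tet3KO (SD, n = 2). These neighbours were chosen after their values were seen, to show the transition.

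The flank held further unmethylated tracts, the longest being chr11:44283501-44284600 (9 tiles, mean 0.193%, at most 0.860% in any library) and chr11:44332001-44333200 (10 tiles, mean 0.882%, at most 3.36%). At the other end of the gene body a lone tile, chr11:44821601-44821700, was listed at 0 in 20 of 23 libraries and reached 7.07% in follicular DKO library 22. The interior of the gene was mostly methylated. Of the 26 clusters, 9 stayed under 20% and 8 above 80% in the mean of every group.

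**Figure D2:**
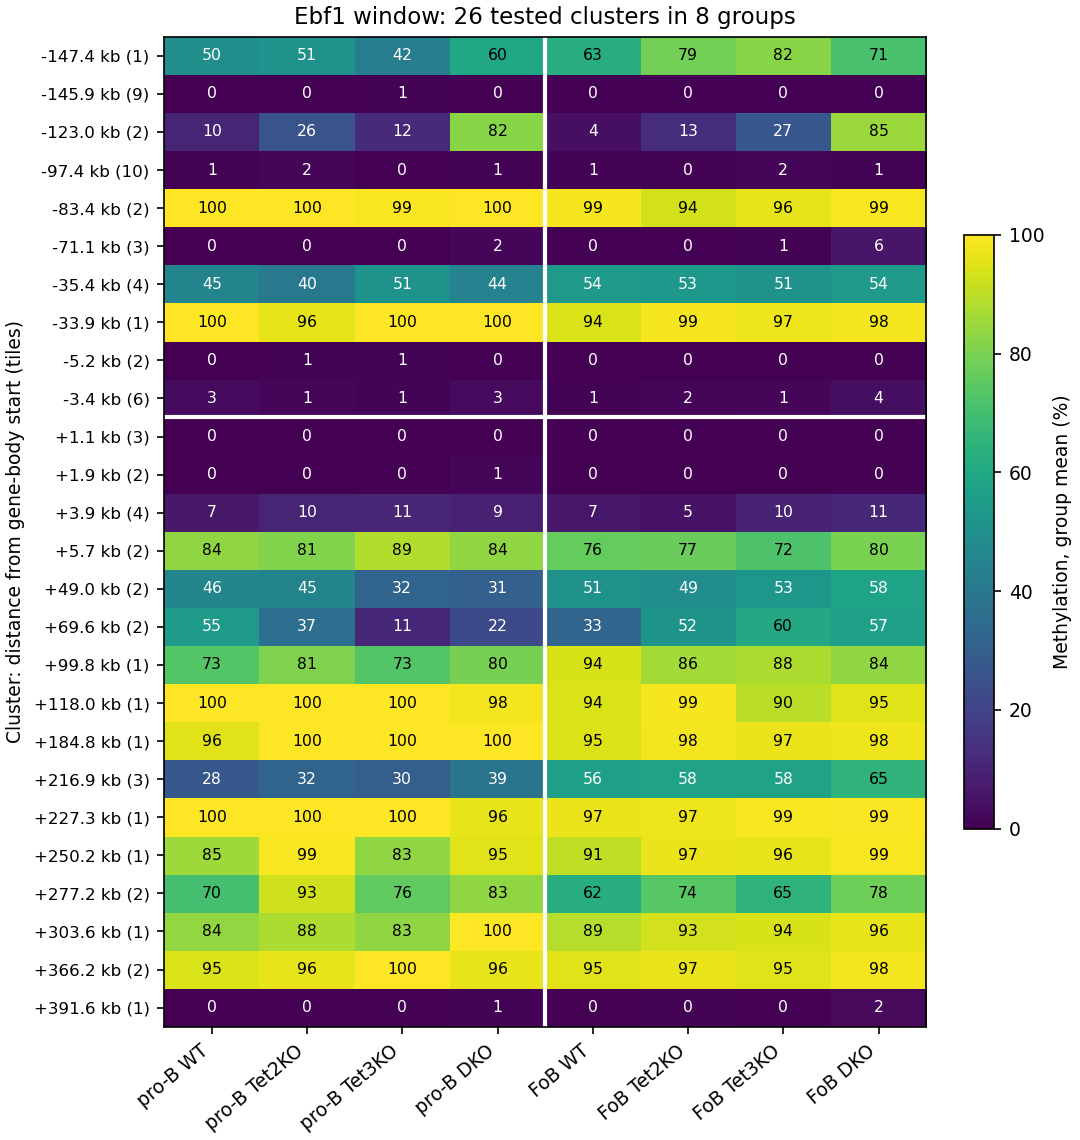
Group mean methylation (colour and printed value, %) of the 26 tested clusters of the window, ordered along the chromosome and labelled by distance from the start of the gene body with the number of tiles in brackets, in 8 groups of libraries. The white lines separate pro-B from FoB groups and flank from gene body. The third row, 123 kb before the gene body, is the one that turns from low in WT and the single knockouts to 82.2% and 85.0% in DKO.

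In DKO cells 1 cluster of the flank was methylated that was nearly unmethylated in WT. It is called the element below, a name for its tested tiles only. The cluster chr11:44306901-44307200, 2 tiles within 300 bp and 123 kb before the gene body, stood at 3.91% ± 2.70 in follicular WT and at 85.0% ± 4.77 in follicular DKO (SD, n = 3 each). Its 3 follicular WT libraries were at 3.14%, 6.90% and 1.67%. The 3 follicular DKO libraries were at 86.0%, 79.8% and 89.2%, far above WT with no overlap. The difference was 81.1 points (95% interval 63.7 to 98.4), with limma's adjusted p = 0.000106 over all 66504 clusters. By size it ranked 3 among those clusters and 1 among the 42247 with at least 2 tiles. It was the only cluster of the window called higher, a call being an adjusted p under 0.05 with a difference of at least 20 points, and none was called lower. That is 1 of 26, and 0.275% of all clusters were called. This region was known from earlier results of these data, so its rank is a description.

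**Figure D3:**
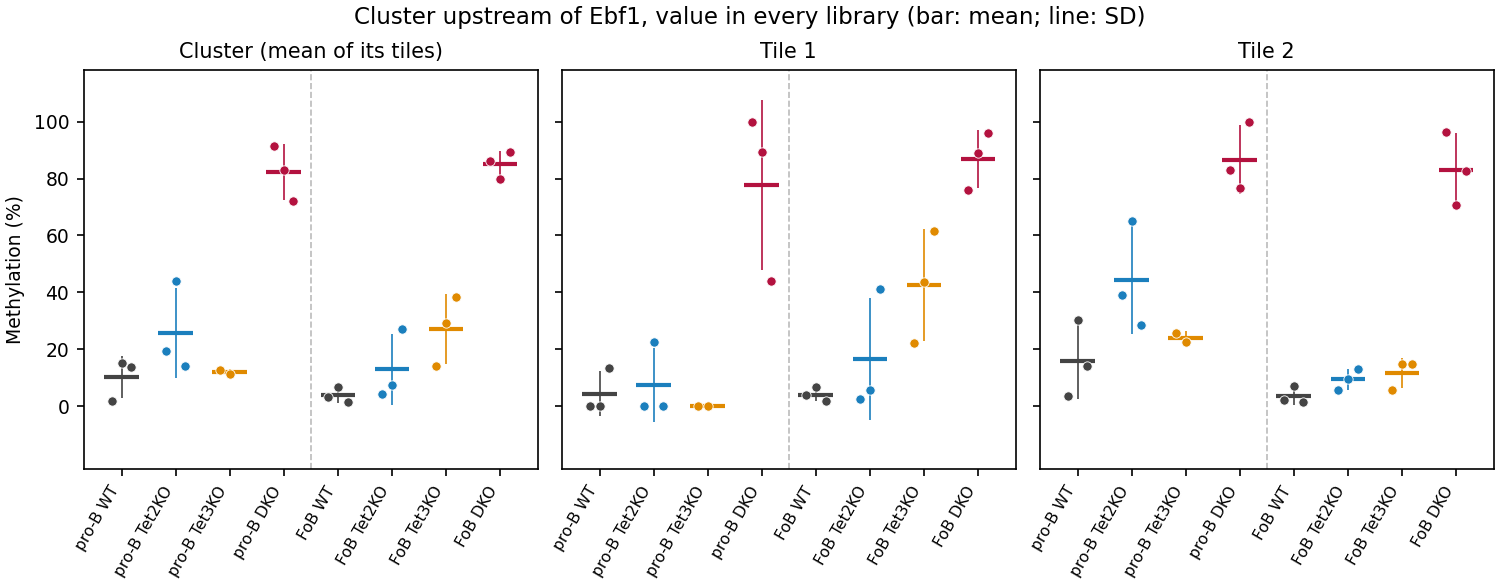
Methylation (y axis, %) of the cluster 123 kb before the Ebf1 gene body and of its 2 tiles, in 8 groups of libraries (x axis). Points are libraries, bars are group means and lines are the SD. DKO libraries lie between 72.0% and 91.6% in the cluster, above the 43.9% of the highest other library.

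Pro-B cells showed the same contrast. Pro-B WT libraries stood at 1.87%, 15.1% and 13.8% (mean 10.3% ± 7.30) and pro-B DKO libraries at 91.6%, 83.0% and 72.0% (mean 82.2% ± 9.81; SD, n = 3 each). The lowest DKO library lay well above the highest WT library. The difference of 71.9 points (95% interval 54.6 to 89.3) was called with limma's adjusted p = 0.000487, and it ranked 39 of 66504 clusters. Again 1 of 26 clusters was called, against 0.513% of all clusters. Genome-wide, 182 clusters were called higher in follicular DKO and 295 in pro-B DKO, and the cluster is 1 of the 61 called in both, which are 33.5% of the first list and 20.7% of the second.

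In single knockouts the cluster stayed much nearer to WT. Follicular Tet2KO libraries were at 4.27%, 7.61% and 27.3% (mean 13.1% ± 12.4), overlapping WT. Follicular Tet3KO libraries were at 14%, 29.3% and 38.2% (mean 27.2% ± 12.2), all above the WT libraries and all below the DKO libraries. Limma gave 9.15 points above WT for Tet2KO (95% interval -8.21 to 26.5, adjusted p = 1) and 23.3 points for Tet3KO (95% interval 5.92 to 40.7, unadjusted p = 0.0116, adjusted p = 1). No cluster of the window was called in either, with 1 of 26 at an unadjusted p under 0.05 in each. For Tet3KO that was this cluster. For Tet2KO it was another, chr11:44346301-44346900, which was lower than WT (-5.10 points, limma's unadjusted p = 0.0214). Over all clusters 0.00150% were called and 1.92% had such a p for Tet2KO, and 0.00752% and 3.26% for Tet3KO. In pro-B cells Tet2KO libraries were at 19.6%, 43.9% and 14.2% (mean 25.9% ± 15.8) and Tet3KO libraries 7 and 9 at 12.9% and 11.3%. Tet2KO overlapped WT and averaged 15.6 points more (95% interval -1.75 to 33.0, limma's adjusted p = 0.577), and Tet3KO 1.82 points more (95% interval -17.6 to 21.2, adjusted p = 1). No cluster of the window was called in pro-B Tet2KO (0 at an unadjusted p under 0.05) or in pro-B Tet3KO (2 at that p). Over all clusters 0.126% were called and 9.64% had such a p in pro-B Tet2KO, and 0.818% and 13.3% in pro-B Tet3KO.

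The DKO was then compared with each single knockout of the follicular stage. The cluster stood 71.9 points above Tet2KO (95% interval 54.6 to 89.3, limma's adjusted p = 0.000573) and 57.8 points above Tet3KO (95% interval 40.4 to 75.2, adjusted p = 0.00869). It was the 1 cluster of 26 called in each comparison, against 0.111% and 0.0421% of all clusters. Neither call held with only the groups compared (limma's adjusted p = 0.130 and 0.353) or with a block on strata of sex and age (65.1 points, adjusted p = 0.0770, and 60.4 points, adjusted p = 0.167). The call against Tet3KO was also lost on logit values (adjusted p = 0.315) and without follicular Tet3KO library 19 (51.2 points, adjusted p = 0.0508). The DKO difference exceeded the sum of both single-knockout differences by 48.6 points (SE 11.6, unadjusted p = 6.43e-04), which was not past the threshold over all clusters (limma's adjusted p = 0.669). For that comparison no window cluster was called, and 3 had an unadjusted p under 0.05. Over all clusters 0.00601% were called and 2.44% had such a p.

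The call against WT held in the follicular stage with only the WT and DKO libraries fitted (limma's adjusted p = 0.0314). In pro-B cells it was lost in that fit (adjusted p = 0.301) and with only the pro-B libraries fitted (adjusted p = 0.0727). At both stages it held with any single library left out. Blocking on strata of sex and age left it at 77.4 points with an adjusted p of 0.0600, and the pro-B difference at 68.3 points with an adjusted p of 0.0944. WT and DKO share only the stratum of 6-week females, with libraries 3 and 12 in pro-B and 15 and 24 in follicular cells. With the block these genotypes are linked only through those libraries.

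The 2 tiles of the cluster differed from each other in the single knockouts. At chr11:44306901-44307000 follicular Tet3KO libraries were at 22.2%, 43.8% and 61.5%, whereas at chr11:44307101-44307200 the same libraries were at 5.83%, 14.9% and 14.9%. In pro-B Tet2KO the order was the other way, with 0%, 22.5% and 0% at the first tile and 39.1%, 65.2% and 28.4% at the second. Whether few reads lie behind such values cannot be told from levels alone. Both tiles were called higher in follicular DKO than in WT, by 82.7 points (limma's adjusted p = 0.0145) and 79.5 points (adjusted p = 0.00131), 2 of 69 against 0.129% of all tiles. The libraries ran from 1.82% to 6.67% in WT and from 75.9% to 95.8% in DKO at the first tile, and from 1.53% to 7.14% and from 70.7% to 96.2% at the second. Both were also called in pro-B DKO, by 73.2 points (adjusted p = 0.0332) and 70.6 points (adjusted p = 0.00422), against 0.231% of all tiles. Pro-B DKO library 12 was the least regular, at 44.0% in the first tile and 100% in the second. The second tile was also called against follicular Tet2KO (73.6 points, adjusted p = 0.00295) and Tet3KO (71.2 points, adjusted p = 0.00464). It was then 1 of 69 tiles, against 0.0662% and 0.0383% of all tiles.

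The change at the element was not seen in its nearest tested neighbours. The nearest tested clusters, 22.3 kb before and 24.8 kb after it, are the unmethylated tracts at 44283501 and 44332001. They stayed at 0.133% ± 0.187 and 0.508% ± 0.325 in follicular DKO, against 0.289% ± 0.133 and 0.990% ± 1.07 in follicular WT (SD, n = 3 each). No tested tile lies between, so how far the change extends around the element is not known.

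Over whole stretches the DKO difference was small, and in the flank most of it lay in the element. The library mean over 28 tiles of the flank with a value in every library but library 8 was 3.61% ± 0.576 in follicular WT and 11% ± 0.799 in follicular DKO, and 3.84% ± 1.51 and 9.98% ± 0.570 in the pro-B groups (SD, n = 3 each). The DKO libraries did not overlap WT at either stage (two-sided exact permutation p = 0.1, the smallest that 3 against 3 libraries allow). Leaving out the 2 tiles of the element reduced the follicular difference from 7.37 to 1.70 points, still without overlap (exact permutation p = 0.1). The pro-B difference went from 6.14 to 1.08 points, with overlap (exact permutation p = 0.4). Over 16 tiles of the gene body the follicular means were 34.0% ± 1.97 in WT and 38.4% ± 1.97 in DKO, a difference of 4.40 points away from the element (exact permutation p = 0.1, no overlap). The pro-B means were 29.1% ± 4.37 and 30.1% ± 5.27 (exact permutation p = 0.7), and this difference turned to -1.38 points without pro-B DKO library 12 and to -1.37 without pro-B WT library 2. Over all 44 such tiles of the window, leaving out the element reduced the follicular difference from 6.29 to 2.73 points, still without overlap (exact permutation p = 0.1). The mean over 128596 autosomal tiles was 28.1% ± 0.127 in follicular WT and 29.2% ± 0.367 in follicular DKO.

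Small follicular differences between DKO and WT ran mostly in one direction through the window. Follicular DKO means lay above WT in 20 of 26 clusters, against 61.2% of all clusters, with a median difference of 2.96 points against 0.458 points over all clusters. In 8 of 26 clusters every DKO library lay above every WT library, against 11.6% of all clusters, and in none did every DKO library lie below, against 3.20%. Apart from the element, these clusters had differences of 0.300 to 15.6 points. For pro-B DKO against pro-B WT the median difference was 0.642 points, against 0.231 points over all clusters. Follicular Tet2KO had a median difference from WT of 0.682 points in the window, against 0.128 points over all clusters. For follicular Tet3KO these were 0.766 and 0.348 points. The follicular comparisons all use the same WT libraries, so their directions are not independent. At chr11:44358701-44359000 (3 tiles, 71.1 kb before the gene body) the WT libraries were all listed at 0 and the DKO libraries at 1.67%, 8.30% and 7.85%. That is 5.94 points more in DKO (unadjusted p = 4.23e-04, limma's adjusted p = 0.0762), with pro-B DKO libraries at 0%, 5.0% and 0.269%. It was chosen after its values were seen, as was chr11:44707101-44707300 in the gene body. There, follicular WT libraries were at 65.1%, 55.0% and 66.7% and DKO libraries at 83.3%, 76.2% and 74.0%, without overlap and without a call. Follicular Tet2KO libraries, at 73.4%, 68.8% and 79.4%, also lay above WT there.

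The clearest difference between the stages lay deep in the gene body. The cluster chr11:44646701-44647100 (3 tiles, 217 kb into the gene), the most methylated of the gene body among clusters of at least 3 tiles, was higher in follicular than in pro-B libraries of every genotype. Pro-B WT libraries were at 31.4%, 15.7% and 35.4% and follicular WT libraries at 55.2%, 54.7% and 58.9%. Pro-B Tet2KO libraries were at 38.9%, 43.0% and 14.8% and follicular ones at 60.8%, 57.8% and 54.3%. For Tet3KO the pro-B libraries 7 and 9 were at 21.9% and 38.8% and the follicular libraries at 56.2%, 66.5% and 50.3%. For DKO the pro-B libraries were at 41.6%, 26.8% and 47.5% and the follicular libraries at 62.5%, 68.1% and 64.4%. The lowest of the 12 follicular libraries, at 50.3%, thus lay above the highest of the 11 pro-B libraries, at 47.5%. This was 1 of 26 clusters, and 0.427% of all clusters separated the stages in that direction.

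The stage difference at this cluster was positive in each genotype. It was 28.8 points in WT (95% interval 11.2 to 46.4, limma's adjusted p = 0.148), 25.4 in Tet2KO (7.78 to 43.0, adjusted p = 0.425), 27.4 in Tet3KO (7.70 to 47.0, adjusted p = 0.173) and 26.4 in DKO (8.75 to 44.0, adjusted p = 0.205). None was called. The DKO stage difference differed from that of WT by -2.43 points (95% interval -27.3 to 22.5, limma's adjusted p = 0.995), so a difference of either sign within that interval is not excluded. The mean of the 4 stage differences, a contrast added after these values had been seen, was 27.0 points (95% interval 17.9 to 36.0, limma's adjusted p = 0.00110) and was called. It was still called when blocked on strata of sex and age and when any single library was left out. The adjusted p does not account for the choice of this contrast, and these alternatives reuse the same libraries. The tiles called in it were chr11:44646901-44647000 (33.4 points, adjusted p = 0.00581) and chr11:44647001-44647100 (25.4 points, adjusted p = 0.00624), while chr11:44646701-44646800 was not called (22 points, adjusted p = 0.233).

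**Figure D4:**
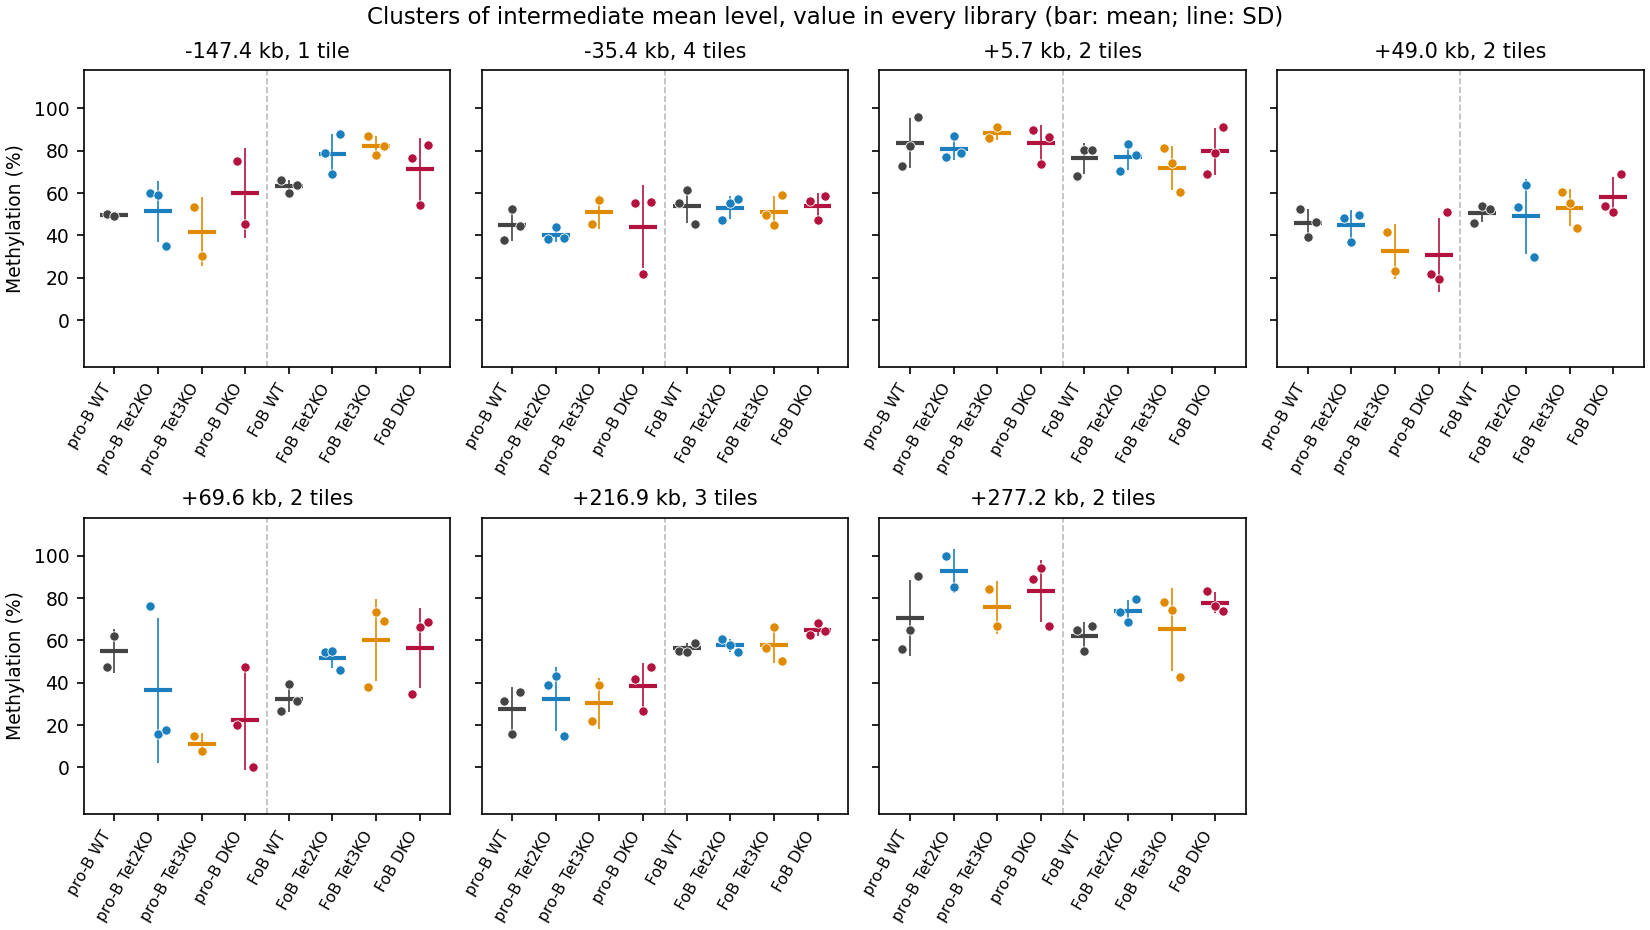
Methylation (y axis, %) of the 7 other clusters with a mean level between 20 and 80%, each panel titled by distance from the start of the gene body, in 8 groups of libraries (x axis). Points are libraries, bars are group means and lines are the SD. In the panel at +216.9 kb the 12 follicular libraries lie above the 11 pro-B libraries, and in the other panels the stages overlap.

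A lone tile at the far end of the flank, chr11:44282501-44282600, was the other place called in the mean stage difference. It averaged 49.6% in pro-B WT (libraries 2 and 3 at 50.0% and 49.2%) and 63.2% ± 3.06 in follicular WT (60% to 66.1%, n = 3). The highest means were 78.6% ± 9.29 in follicular Tet2KO and 82.3% ± 4.66 in follicular Tet3KO (SD, n = 3 each). In Tet2KO the pro-B libraries ranged from 34.8% to 60.2% and the follicular ones from 69.2% to 87.8%, without overlap. In Tet3KO the ranges were 30.4% to 53.3% (n = 2) and 77.8% to 87.1%, also without overlap. In DKO they were 45.2% to 75.0% (n = 2) and 54.3% to 82.6%, which overlap. The mean difference was 23.1 points (limma's adjusted p = 0.0180). It was not called when blocked on strata of sex and age (21.9 points, adjusted p = 0.105) or without pro-B DKO library 11 (19.4 points). In all, 2 of 26 clusters and 3 of 69 tiles were called for the mean stage difference, all of them higher in follicular cells, against 1.24% of all clusters and 0.939% of all tiles.

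Within single genotypes no window cluster was called between the stages. The numbers with an unadjusted p under 0.05 in limma's test were 1 of 26 for WT and 4 for DKO, 4 for Tet2KO and 6 for Tet3KO, and 3 for the difference between the DKO and WT changes. Over all clusters, in that order, 11.2%, 11.2%, 6.58%, 14.4% and 6.42% had such a p, and 0.359%, 0.278%, 0.0932%, 0.794% and 0.0331% were called. In each genotype the pro-B and follicular libraries have the same sexes and ages. The labels do not say whether both stages came from the same mice, so the stages were compared without pairing. The upstream element was not called between the stages in any genotype. Its follicular mean differed from the pro-B mean by -6.36 points in WT (95% interval -23.7 to 11) and by 2.78 in DKO (-14.6 to 20.2), and among the single knockouts by -12.8 in Tet2KO (-30.2 to 4.55) and by 15.1 in Tet3KO (-4.30 to 34.5). Falls or rises inside these intervals are not excluded.

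Other clusters of intermediate level had wide spreads within groups. The most methylated flank cluster of at least 3 tiles, chr11:44394401-44394800 (4 tiles), had group means from 40.4% ± 3.32 in pro-B Tet2KO to 54.1% ± 8.14 in follicular WT (SD, n = 3 each), with pro-B DKO libraries at 55.2%, 21.7% and 55.7%. A pair of clusters in the gene body was chosen after their values were seen. At chr11:44478901-44479100 group means ran from 30.7% ± 17.6 in pro-B DKO to 58.0% ± 9.48 in follicular DKO. At chr11:44499401-44499700 pro-B Tet3KO libraries 7 and 9 were at 14.8% and 7.78% and follicular Tet3KO libraries at 38.1%, 73.5% and 69.3%, without overlap and without a call (49.0 points, limma's adjusted p = 0.194).

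The 5 clusters elsewhere whose 8 group means were most like those of the upstream element, by root mean square difference over 42230 clusters of at least 2 tiles, lay on 4 chromosomes. The nearest was chr5:123774301-123774600, with a root mean square difference of 8.23 points. Follicular Tet3KO averaged 8.54% ± 0.564 there and follicular DKO 85.1% ± 4.60 (SD, n = 3 each). It lacked the intermediate follicular Tet3KO level of the upstream element. The others were chr7:106036501-106036700 (11.3 points), chr2:157522301-157522500 (11.6 points), chr14:34003001-34003400 (11.7 points) and chr5:125857901-125858100 (12.5 points). At chr2:157522301-157522500 follicular Tet3KO was at 38.5% ± 7.62 and DKO at 72.1% ± 2.61. The first 4 were called higher in DKO at both stages, and the last at neither (limma's adjusted p = 0.0552 and 0.0730).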

How the data were processed

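RRBS libraries of pro-B and follicular B cells were analysed, 24 in 8 groups of 3 taken from the labels. The authors deposited one methylation fraction (0 to 1) per 100 bp tile and library, without reads, with tile coordinates per the file headers. The submitters' processing notes name Trim Galore, methylKit and the builds mm9 and hg19, and no tool version; the aligner, conversion rate and coverage minimum are not given in the sources used here. Fractions were turned into percentages. The build was taken as mm9.

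Limma 3.58.1 (R 4.3.3) was fitted with the 8 groups as a factor and a trended prior to the 200813 autosomal tiles at which each group had 2 or more values, and to 66504 clusters of such tiles (gaps up to 500 bp; mean of the tiles). Benjamini-Hochberg adjustment ran over all tiles or clusters. A call needs an adjusted p under 0.05 and 20 points. Where a library had no value it was left out of that fit. Stretch means were compared by exact permutation over libraries. The fit was tested on simulated data.

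Named regions were called clusters of at least 2 tiles, called tiles, the lowest and highest other clusters of at least 3 tiles per stretch, and the 5 clusters elsewhere most like the leading one. Others are marked where named. The window, the lists and the tests were chosen with earlier results of these data known. Alternatives were logit values, only the groups or the stage compared, sex as covariate, centred libraries, 30 points, other tile sets, a 1000 bp gap, sex and age strata as a block, and each library left out; the mean stage contrast was added after the data were seen. No mm9 genome or annotation was used, so tile sequences are not shown.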

Additional observations from a re-analysis of the deposited data

Results flagged for a closer look

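Some tiles with values in too few libraries to be tested had follicular DKO levels above every follicular WT library. With a difference of at least 20 points they are 5 of the window's 60 untested tiles with at least 2 values in both groups, or 8.33%, against 2.10% of 282516 such tiles of all autosomes. They rest on values of unknown depth. Another 2 of the 60 lay below WT in the same way, chr11:44353701-44353800 (44.2% in DKO, 75.4% in WT) and chr11:44834101-44834200 (72.3% in DKO, 94.3% in WT), against 0.537% over all autosomes. At chr11:44500001-44500100 DKO exceeded WT by 52.4 points (DKO libraries 22 and 23 at 100% and 91.7%, WT libraries at 69.7%, 38.9% and 21.7%). The adjoining tiles chr11:44581901-44582000 and chr11:44582001-44582100 stood 43.9 and 33.7 points higher in DKO, with DKO libraries at 100%, 100% and 92.9% in the first and at 73.9%, 78.6% and 82.6% in the second. At chr11:44701401-44701500 the difference was 45.4 points (DKO libraries 22 and 23 both at 100%, WT at 60%, 50.0% and 53.7%). At chr11:44733601-44733700 it was 31.3 points, with WT libraries spread from 4.55% to 60%. All 5 tiles lie in the gene body. None of the 18 such tiles of the pro-B groups lay above or below WT in this way, against 3.69% and 1.81% over all autosomes.

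At 2 clusters every follicular library lay on one side of the pro-B libraries in one genotype and on the other side in another, and this difference between genotypes was not tested. Over all clusters 5.05% show such a pattern, and some groups have only 2 libraries. The cluster chr11:44499401-44499700 differed between follicular and pro-B cells by -22.4 points in WT (pro-B libraries 2 and 3 at 47.5% and 62.3%, follicular libraries at 26.9%, 39.3% and 31.4%) and by 49.0 points in Tet3KO. The cluster chr11:44733501-44733600 differed by 10.6 points in Tet3KO and by -3.57 points in DKO, where all 3 pro-B libraries were listed at 100%.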

How the results depend on the processing

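The differences between DKO and WT at the cluster chr11:44306901-44307200 kept their direction under every alternative run, and their calls under sex as a covariate, centred libraries, 30 points, the 1000 bp gap and without the library of fewest tiles. Libraries carry running numbers that no 2 groups share, so a replicate block was made of sex and age strata. WT and DKO share only the stratum of 6-week females (libraries 3, 12, 15 and 24), and WT and Tet3KO share none. Blocked differences between genotypes thus rest on few libraries and are not an ordinary adjustment for sex and age. If both stages came from the same mice, which the labels do not say, both libraries of a mouse would fall in the same stratum. With this block the cluster was no longer called, at 77.4 points for follicular DKO against WT, 65.1 against Tet2KO (adjusted p = 0.0770), 60.4 against Tet3KO (0.167) and 68.3 in pro-B cells, and the pro-B Tet3KO difference from WT turned to -3.35 points. With only the groups compared, calls were lost against Tet2KO (71.9 points, adjusted p = 0.130), against Tet3KO (57.8 points, 0.353) and in pro-B cells (71.9 points, 0.301), and with only the stage compared in pro-B cells (0.0727). Logit values ended the call against Tet3KO (57.8 points, 0.315). These fits leave fewer libraries or degrees of freedom, or change the scale, and the cause was not tested. Window clusters called accordingly went from 1 to 0 in each of these cases. With a value required in all 24 libraries only 3 tiles of the window could be tested, so all counts of calls were 0. Window tiles called in follicular DKO against WT numbered 1 on logit values and with the block, and 0 with only the groups compared. Against Tet2KO they numbered 0 on logit values, with only the groups compared and with the block, and 2 with tiles chosen in the groups compared. Against Tet3KO they numbered 0 on logit values, with only the groups compared and with the block. In pro-B DKO they numbered 1 on logit values and 0 with only the groups or the stage compared and with the block. For the stages, 1 tile was called in WT with only the groups compared, and 3 tiles and 1 cluster in Tet3KO with centred libraries. The mean stage difference gave 1 tile and 0 clusters at 30 points, 1 cluster with the block and with the 1000 bp gap, and 1 lower tile with centred libraries. At chr11:44646701-44647100 it was 27.0 points, short of the 30 points. At chr11:44282501-44282600 it was 23.1 points, also short of 30, was 21.9 with the block, and was 3.30 points with the 1000 bp gap, which joins this tile to the unmethylated tract beside it.

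Leaving out each library in turn, the follicular DKO difference from WT at the element ran from 79.0 to 83.7 points, from Tet2KO 67.5 to 79.0, from Tet3KO 51.2 to 63.3, and in pro-B cells from WT 67.3 to 77.0. Without follicular Tet3KO library 19 the call against Tet3KO was lost (51.2 points, adjusted p = 0.0508), so window clusters called ran from 0 to 1. The Tet2KO difference from WT ran from 2.04 points, without library 18, to 13.5 in follicular cells and from 6.62, without library 5, to 21.5 in pro-B cells. The pro-B Tet3KO difference from WT ran from -2.38 points, without pro-B WT library 1, to 4.25, and the DKO stage difference from -2.32 points, without pro-B DKO library 12, to 7.47. Tiles called against Tet2KO ran from 1 to 2, with the tile at 44306901 joining without pro-B DKO library 10 or 12, follicular Tet2KO library 18, Tet3KO library 19 or 21, or DKO library 22. Tiles called in pro-B DKO ran from 1 to 2, the same tile being lost without pro-B WT library 1, pro-B DKO library 10 or 11, or follicular WT library 13, 14 or 15, with adjusted p up to 0.0611. Without pro-B Tet3KO library 7 the Tet3KO stage change gave 1 tile and 1 cluster in place of 0. For the mean stage difference 2 to 3 tiles were called higher and 0 to 1 lower, the lower one without pro-B WT library 1, pro-B DKO library 12 or follicular Tet3KO library 19, and 1 to 3 clusters higher. It ran from 24.8 to 29.1 points at chr11:44646701-44647100 and from 19.4 to 26.8 at chr11:44282501-44282600.

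For stretches, all tiles with a value in a library gave follicular DKO minus WT differences of 4.62 points over the window, 3.40 in the flank and 7.02 in the gene body, a pro-B DKO difference of 2.44 in the flank, and WT stage differences of 12, 6.97 and 10.7 points. These means compare different tiles in different libraries. The 3 tiles with a value in all 24 libraries gave -0.00809, 0 and -0.0243 points for follicular DKO, 0 for pro-B DKO and 0.251 for the WT stages in the gene body. They do not include the element. Without 1 library the gene body difference ran from 3.27 to 5.50 points in follicular DKO and from -1.38 to 3.83 in pro-B DKO, and the flank differences from 6.91 to 7.61 and from 5.41 to 6.92. Depth limits the rest: no read counts back any level, and pro-B libraries 8, 12 and 1 have the fewest tiles of the window.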
